A study of Mus musculus with 9 samples.

Results

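Type I interferons are secreted proteins that cells release when they sense foreign or misplaced nucleic acid. They bind the receptor made of Ifnar1 and Ifnar2, whose kinases Jak1 and Tyk2 phosphorylate Stat2. Stat2 and Irf9 are subunits of the complex ISGF3, which binds the interferon-stimulated response element in the promoters of many antiviral genes. The products of these genes sense RNA, block translation, hold back virus particles or tag proteins with Isg15, and Irf7 among them feeds back on the production of interferon. In the heart the response is known from viral myocarditis and from the reaction to released mitochondrial or nuclear DNA.

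A set of 39 genes of this response was followed in mouse hearts, out of 21463 genes listed at all 3 ages studied. Members were picked by name, as known interferon-induced genes and the factors that drive them, and all 39 were found in the gene tables of each age. Klf9KI mice carry the alphaMHC-Cre transgene, whose promoter is active in cardiomyocytes, together with the Klf9KI transgene. They were set against Wt-Cre mice, which carry alphaMHC-Cre alone, so that both genotypes share the Cre. Klf9 belongs to the Krüppel-like factors, which bind GC-rich DNA through zinc fingers. Hearts were taken at 1, 4 and 8 weeks of age, with 3 hearts in each of the 6 groups, and the RNA libraries were made from poly-A RNA of heart tissue, per the labels' protocols, although their titles say total RNA. Klf9-bound chromatin was measured separately in hearts of 12 to 14 weeks, in 1 library after 2 weeks of TAC (surgery that narrows the aorta and raises the pressure load) and in 1 library after sham surgery. The labels give neither sex nor litter nor whether the 3 hearts of a group came from separate litters, so p-values measure the spread between these hearts.

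Libraries held 17225388 to 32855383 summed counts at 1 week, 12086856 to 14890828 at 4 weeks and 12543825 to 19912542 at 8 weeks. Klf9 itself averaged 164 ± 16.2 CPM in Klf9KI and 17.0 ± 2.63 CPM in Wt-Cre hearts at 1 week (CPM is a count scaled to the normalised library size, SD, n = 3 each). At 4 weeks it averaged 170 ± 18.6 CPM in Klf9KI and 130 ± 14.7 CPM in Wt-Cre hearts (log2 fold change 0.37, adjusted p = 0.111). At 8 weeks it averaged 132 ± 9.94 CPM in Klf9KI and 59.1 ± 16.1 CPM in Wt-Cre hearts (log2 fold change 1.19, adjusted p = 0.00594). All 8 cardiomyocyte markers were present at each age. Xist, which is transcribed from the inactive X chromosome, was high in 2 of the 3 Klf9KI hearts of 1 week and in no Wt-Cre heart of that age.

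The response element can be read in many of the promoters. RefSeq promoter windows (GRCm38.p6, 250 bases before to 50 after a gene start) were at hand for 29 of the 39 genes. The core of the element, spelled GAAA, any 2 bases and GAAA again, was searched on both strands and occurred in the windows of 15 of the 29 genes, or 51.7%, against 3.99% of all 27025 genes with a window. The sites below were picked because they match, so they show where the letters lie and what surrounds them. Each is 30 bases on the gene's own strand from 5′ to 3′, with the matching letters in capitals and overlapping matches run together.
Isg15, chr4:156200871-156200900, minus strand: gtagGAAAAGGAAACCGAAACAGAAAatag
Oas1a, chr5:120907523-120907552, minus strand: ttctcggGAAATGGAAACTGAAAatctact
Oas3, chr5:120777715-120777744, minus strand: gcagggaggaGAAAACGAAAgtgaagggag
Bst2, chr8:71537580-71537609, minus strand: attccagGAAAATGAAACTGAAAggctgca
Ifit1, chr19:34640784-34640813, plus strand: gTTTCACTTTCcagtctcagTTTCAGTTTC
Ifit3, chr19:34583397-34583426, plus strand: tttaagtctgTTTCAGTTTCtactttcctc
Ifit3b, chr19:34607793-34607822, plus strand: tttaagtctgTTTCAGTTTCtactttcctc
Apol9a, chr15:77411117-77411146, minus strand: gtgagacTTTCAGTTTCCATTTCccagttg
Apol9b, chr15:77729028-77729057, plus strand: gtgagacTTTCAGTTTCCATTTCccagttg
Stat2, chr10:128270266-128270295, plus strand: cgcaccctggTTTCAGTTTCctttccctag
Rsad2, chr12:26456553-26456582, minus strand: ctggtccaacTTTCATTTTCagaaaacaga
Ddx58, chr4:40239804-40239833, minus strand: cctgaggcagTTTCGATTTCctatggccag

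Isg15 carried 3 overlapping matches between 78 and 57 bases before its start, and Ifit1 carried 2 separate ones between 104 and 76 bases before it. The 30 bases shown for Ifit3 and Ifit3b were the same, as were those for Apol9a and Apol9b. Aligned without gaps, the closest windows of Apol9a and Apol9b were identical over 281 bases, and those of Ifit3 and Ifit3b matched at 201 of 268. A run of C bases differs in length between the windows of Ifit3 and Ifit3b and shifts what follows. The count of 201 therefore understates how alike they are. Both pairs are close copies whose separate counts are uncertain, and whether reads are shared within them was not tested. Matches were also present at Eif2ak2, Ifih1 and Trim30a. The windows of Irf7 and Irf9 did not hold these letters. The letters CACGCCC, a core bound by Krüppel-like factors, occurred on either strand in the windows of Bst2, Rsad2 and Stat2, which is 10.3% of the 29 genes against 9.61% of all genes.

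At 1 week no member was past the threshold of an adjusted p of 0.05 in edgeR. Of 36 members tested 0 were higher and 0 lower in Klf9KI hearts, where 1.68% of all 15825 genes tested were called and 0.651% were called higher, and DESeq2 also called 0 of them. The 1.68% were 266 genes, a number that was 10 (0.0632%) with sex as a covariate and 21 (0.118%) without the hearts that carry Xist, and the members called were 0 in both. Both fits with sex rest on 1 Klf9KI heart of 1 week, so they are not separate checks, and little could be called in them. At an unadjusted p under 0.05 there were 4 members with all hearts, namely Bst2, Parp9, Ifi27l2a and Ifi44, and the smallest adjusted p was 0.15. The members' median log2 fold change was 0.19, against −0.01 over all genes tested, with a range of −0.56 to 1.07. In 7 of the 36 tested, namely Irf7, Oasl2, Bst2, Parp9, Ifi44, Ifi27l2a and Lgals3bp, the Klf9KI hearts stood above the Wt-Cre hearts without overlap, beside 9.45% of all genes tested, and in the other 29 the groups overlapped. Zbp1, Apol9a and Apol9b were too low at this age to be tested.

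At 4 weeks 38 of the 39 members were higher in Klf9KI than in Wt-Cre hearts and 0 were lower, or 97.4%, where 6.65% of 14513 genes tested were called higher, 6.75% lower and 13.4% in either direction. The median log2 fold change of the members was 2.11, against 0.00 over all genes, and the range was 0.68 to 7.07. For all 39 the lowest Klf9KI heart stood above the highest Wt-Cre heart, a pattern that 16.5% of all genes tested showed. The call of Sp100 was lost without Klf9KI heart 1. The member not called was Helz2, an interferon-induced helicase, at 123 ± 10.5 CPM in Klf9KI and 75.6 ± 27.6 CPM in Wt-Cre hearts (log2 fold change 0.69, adjusted p = 0.0662).

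At 8 weeks 22 of 39 members were higher and 0 lower, or 56.4%, where 4.96% of 14483 genes were called higher, 5.52% lower and 10.5% in either direction. Their median log2 fold change was 1.16, against 0.04 over all genes, with a range of 0.29 to 3.95. In 33 members the Klf9KI hearts stood above the Wt-Cre hearts without overlap, as in 15.4% of all genes tested, and in the other 6 the groups overlapped. These 6 were Eif2ak2, Mx2, Ifi35, Ifi27l2a, Rtp4 and Helz2. Under every alternative tried 8 of the 22 calls held, those of Irf7, Ifit1, Ifit2, Ifit3, Ifit3b, Oasl1, Oasl2 and Usp18. The 22 calls were fewer without single hearts, with 13 left without Klf9KI heart 1 and 11, 11 and 12 left without Wt-Cre heart 1, 2 or 3. All-gene calls were fewer in the same fits, at 5.12% without Klf9KI heart 1 and 3.56%, 3.42% and 4.57% without Wt-Cre heart 1, 2 or 3.

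**Figure D1:**
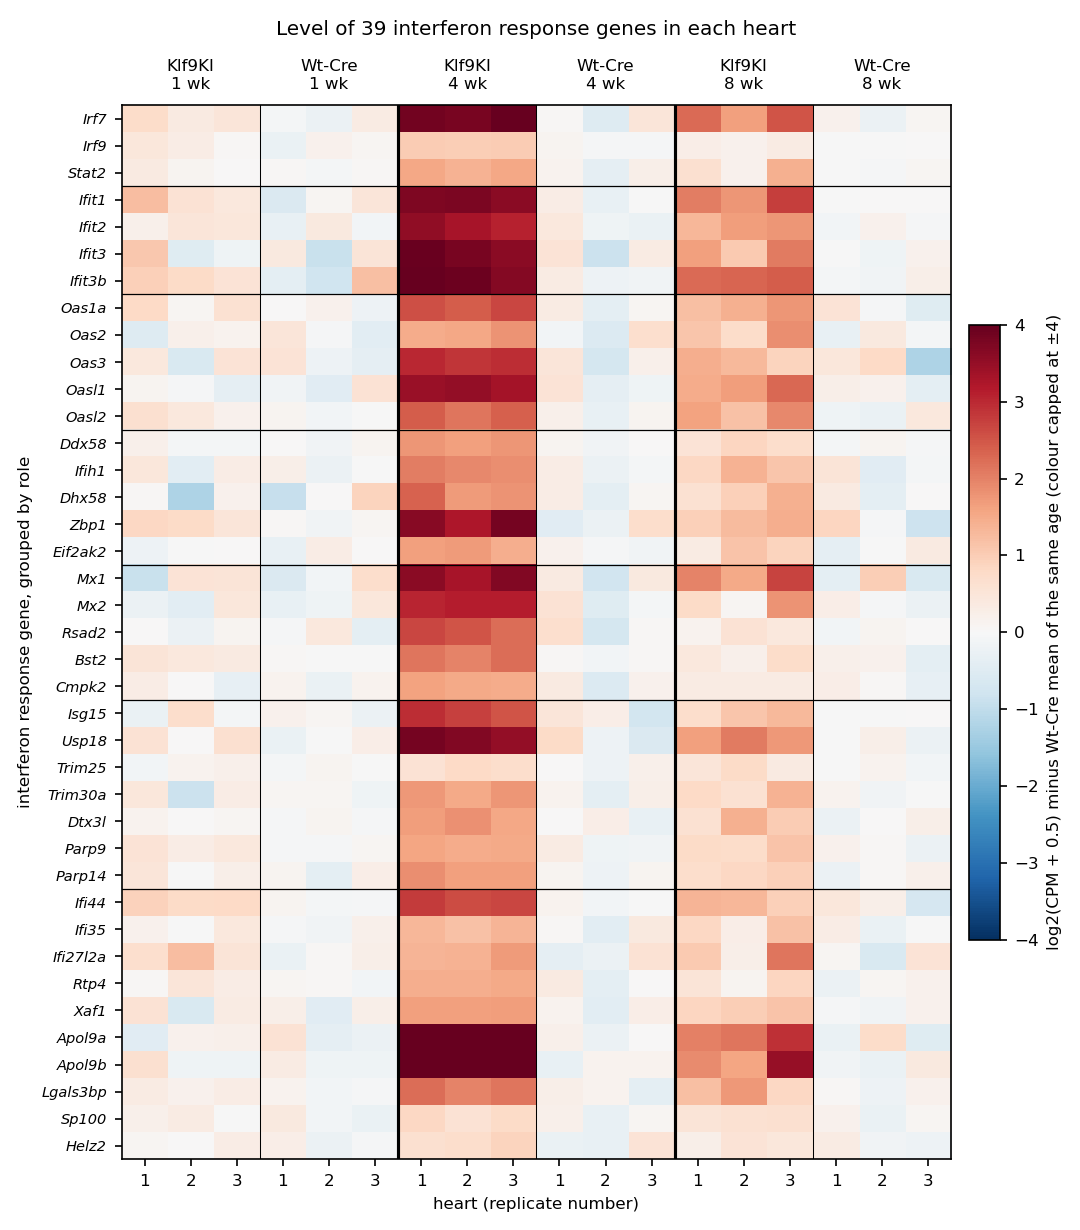
Level of the 39 interferon response genes (rows, grouped by role) in each of 18 hearts (columns), as log2(CPM + 0.5) minus the mean of the 3 Wt-Cre hearts of the same age, with colour capped at 4. The Klf9KI hearts of 4 weeks stand above the Wt-Cre hearts in all 39 rows, and the Klf9KI hearts of 8 weeks are above them without overlap in 33.

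The factors that drive the response come first. Irf7, the factor that amplifies interferon production, had 6.86, 5.16 and 5.74 CPM in the Klf9KI hearts of 1 week and 3.67, 3.29 and 5.02 CPM in the Wt-Cre hearts. At 4 weeks it had 188, 178 and 203 CPM in Klf9KI hearts, against 12.8, 8.59 and 17.5 CPM in Wt-Cre hearts. At 8 weeks the values were 73.4, 47.5 and 88.1 CPM in Klf9KI hearts, against 16.8, 12.6 and 15.9 CPM in Wt-Cre hearts. The groups did not overlap at any age, and the gap was widest at 4 weeks. The log2 fold change was 0.56 (SE 0.28, adjusted p = 0.413) at 1 week, 3.87 (SE 0.22, adjusted p = 4.08e-06) at 4 weeks and 2.23 (SE 0.26, adjusted p = 0.000584) at 8 weeks. Of all 39 members Irf7 had the smallest adjusted p at 8 weeks.

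The subunits of ISGF3 in the set had smaller fold changes than Irf7. Stat2, the subunit that carries the activation domain, had 95.4, 85.2 and 95.9 CPM in the Klf9KI hearts of 4 weeks and 35.4, 25.2 and 37.8 CPM in the Wt-Cre hearts, a log2 fold change of 1.48 (SE 0.16, adjusted p = 0.000134). The 8-week levels were 43.1, 31.0 and 74.3 CPM in Klf9KI hearts, against 27.1, 26.5 and 29.1 CPM in Wt-Cre hearts, where heart 3 of Klf9KI set the mean and the difference was not called (log2 0.87, SE 0.29, adjusted p = 0.0855). Irf9, the DNA-binding subunit, had 62.7, 61.1 and 62.6 CPM in Klf9KI hearts, against 33.1, 30.2 and 29.7 CPM in Wt-Cre hearts at 4 weeks (log2 0.99, SE 0.12, adjusted p = 0.000308). The Klf9KI hearts lay close together here and well above all 3 Wt-Cre hearts. At 8 weeks Irf9 was at 32.7, 30.6 and 34.2 CPM in Klf9KI hearts, against 26.9, 26.6 and 27.4 CPM in Wt-Cre hearts, apart but not called (log2 0.29, adjusted p = 0.368).

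The IFIT proteins bind viral RNA and hold back its translation, and their genes lie side by side on chromosome 19 within 34550694 to 34650009 (mm10). All 4 were higher at both 4 and 8 weeks. Log2 fold changes of this family lay between 3.31 and 4.10 at 4 weeks and between 1.66 and 2.59 at 8 weeks. Ifit1, which binds RNA with a foreign cap, had 115, 118 and 105 CPM in the Klf9KI hearts of 4 weeks and 10.2, 6.55 and 8.10 CPM in the Wt-Cre hearts, and at 8 weeks 30.8, 25.3 and 50.9 CPM in Klf9KI against 7.01, 7.12 and 7.13 CPM in Wt-Cre hearts. Its log2 fold change of 3.76 at 4 weeks had the smallest adjusted p of the set (SE 0.17, adjusted p = 5.33e-07). At 1 week Ifit1 was at 3.67, 2.12 and 1.88 CPM in Klf9KI hearts, against 0.685, 1.38 and 1.97 CPM in Wt-Cre hearts, with the groups overlapping.

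Ifit2 was already present at 1 week, at 22.5 ± 2.43 CPM in Klf9KI and 17.5 ± 4.61 CPM in Wt-Cre hearts. At 4 weeks it had 253, 213 and 182 CPM in Klf9KI hearts, against 28.9, 18.9 and 17.5 CPM in Wt-Cre hearts (log2 3.31, SE 0.21, adjusted p = 4.16e-06). The Klf9KI hearts of 8 weeks, at 51.5, 65.5 and 70.1 CPM, were still above the Wt-Cre hearts of that age, at 18.4, 22.6 and 19.5 CPM (log2 1.66, SE 0.20, adjusted p = 0.000767). Ifit3b, the copy next to Ifit3, had 46.1, 43.4 and 36.3 CPM in Klf9KI hearts, against 3.13, 2.04 and 2.13 CPM in Wt-Cre hearts at 4 weeks, and 12.7, 13.3 and 14.2 CPM against 2.09, 1.97 and 2.71 CPM at 8 weeks. Ifit3 was at 137 ± 15.6 CPM in Klf9KI and 10.2 ± 4.70 CPM in Wt-Cre hearts at 4 weeks.

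The oligoadenylate synthetases make the messenger that switches on RNase L. All 5 members of this family were higher at 4 weeks (log2 1.54 to 3.66) and 4 were higher at 8 weeks, the exception being Oas3, whose level there was 2.27 ± 0.538 CPM in Klf9KI and 0.873 ± 0.788 CPM in Wt-Cre hearts. Oasl2 had 103, 84.7 and 101 CPM in the Klf9KI hearts of 4 weeks, against 21.5, 15.1 and 20.1 CPM in the Wt-Cre hearts (log2 2.34, SE 0.16, adjusted p = 5.15e-06). At 8 weeks Oasl2 had 42.1, 30.9 and 52.8 CPM in Klf9KI hearts, against 11.9, 11.2 and 18.4 CPM in Wt-Cre hearts. The groups stood apart at both ages.

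Oasl1, which in mice restrains translation of Irf7, had 26.9, 27.7 and 24.7 CPM in Klf9KI hearts, against 3.13, 1.42 and 1.70 CPM in Wt-Cre hearts at 4 weeks (log2 3.66, SE 0.25, adjusted p = 6.48e-06). In the 8-week hearts it had 7.68, 8.84 and 13.8 CPM in Klf9KI hearts, against 2.92, 2.74 and 1.71 CPM in Wt-Cre hearts. Oas2 was low in young hearts of both genotypes. It was at 1.70 ± 0.543 CPM in Klf9KI and 1.82 ± 0.739 CPM in Wt-Cre hearts at 1 week, and at 55.7 ± 23.5 CPM in Klf9KI and 22.5 ± 5.70 CPM in Wt-Cre hearts at 8 weeks. Oas1a was at 27.5 ± 2.40 CPM in Klf9KI and 4.35 ± 1.18 CPM in Wt-Cre hearts at 4 weeks. Oas1a has close copies among the other mouse Oas1 genes, so its separate count is uncertain.

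The sensors recognise RNA or left-handed nucleic acid in the cytosol, and the kinase Eif2ak2 (PKR) stops translation when it binds double-stranded RNA. All 5 were higher at 4 weeks (log2 1.62 to 4.06), and 2 of 5, Ddx58 and Ifih1, were higher at 8 weeks. Ddx58, which encodes RIG-I, averaged 84.6 ± 3.98 CPM in Klf9KI and 25.5 ± 2.29 CPM in Wt-Cre hearts at 4 weeks, and 32.3 ± 3.52 CPM in Klf9KI and 19.6 ± 1.52 CPM in Wt-Cre hearts at 8 weeks. Ifih1, which encodes MDA5, averaged 62.9 ± 4.35 CPM in Klf9KI and 16.3 ± 3.24 CPM in Wt-Cre hearts at 4 weeks. Zbp1, a sensor that can start necroptosis, had the largest log2 fold change of the group at 4.06 (SE 0.38, adjusted p = 5.91e-05), from 15.3 ± 3.26 CPM in Klf9KI and 0.895 ± 0.633 CPM in Wt-Cre hearts.

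Eif2ak2 had 55.0, 57.7 and 48.3 CPM in Klf9KI hearts, against 19.7, 16.6 and 15.8 CPM in Wt-Cre hearts at 4 weeks (log2 1.62, SE 0.14, adjusted p = 3.84e-05). By 8 weeks it had 15.7, 28.1 and 23.8 CPM in Klf9KI hearts, against 9.69, 12.4 and 16.1 CPM in Wt-Cre hearts, so that the lowest Klf9KI heart was below the highest Wt-Cre heart (log2 0.84, adjusted p = 0.0895). Dhx58, which encodes the regulator LGP2, had 19.9, 12.5 and 13.4 CPM in Klf9KI hearts, against 4.38, 2.57 and 3.75 CPM in Wt-Cre hearts at 4 weeks (log2 2.09, adjusted p = 0.000516). At 8 weeks it stood at 6.5 ± 1.98 CPM in Klf9KI and 2.99 ± 0.922 CPM in Wt-Cre hearts (adjusted p = 0.111).

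The restriction factors act on virus particles or their nucleotides. All 5 were higher at 4 weeks (log2 1.51 to 3.74), and at 8 weeks only Mx1 was (log2 2.34, SE 0.61, adjusted p = 0.034). Rsad2, or viperin, makes a nucleotide that ends RNA chains. It had 184, 166 and 135 CPM in Klf9KI against 45.5, 17.4 and 29.3 CPM in Wt-Cre hearts at 4 weeks (log2 2.39, SE 0.30, adjusted p = 0.00107), a call that was lost without Wt-Cre heart 3. At 8 weeks its hearts were at 25.2, 34.3 and 31.1 CPM in Klf9KI hearts, against 21.1, 25 and 23.0 CPM in Wt-Cre hearts (log2 0.41, adjusted p = 0.25). The neighbouring Cmpk2, a mitochondrial nucleotide kinase 12.8 kb away on chromosome 12, had 52.9, 50.1 and 49.3 CPM in Klf9KI hearts, against 22.1, 11.7 and 19.5 CPM in Wt-Cre hearts at 4 weeks, and 17.0, 17.0 and 16.9 CPM against 16.2, 14.0 and 10.6 CPM at 8 weeks. Both neighbours were thus well above Wt-Cre hearts at 4 weeks and near them at 8 weeks.

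Bst2, or tetherin, holds budding virus at the cell surface. It had 24.7, 23.4 and 22.1 CPM in the Klf9KI hearts of 1 week and 17.6, 17.0 and 17.0 CPM in the Wt-Cre hearts, which is the smallest adjusted p of that age (log2 0.43, SE 0.14, adjusted p = 0.15). At 4 weeks it had 104, 93.2 and 113 CPM in Klf9KI hearts, against 24.4, 21.7 and 24.2 CPM in Wt-Cre hearts (log2 2.13, SE 0.13, adjusted p = 4.08e-06). The Klf9KI hearts of 8 weeks, at 47.3, 40.7 and 58.2 CPM, lay just above the Wt-Cre hearts at 40.6, 39.3 and 26.7 CPM (log2 0.48, adjusted p = 0.216). Per length Bst2 was the most abundant member in Klf9KI hearts of 4 weeks, at 113 ± 11.1 FPKM. In Wt-Cre hearts of that age it had 25.9 ± 1.47 FPKM, beside 26.5 ± 10.5 FPKM for Ifi27l2a. Mx2, a GTPase that the files annotate as a polymorphic pseudogene, had 25.5, 27.6 and 27.6 CPM in Klf9KI hearts, against 4.20, 1.77 and 2.47 CPM in Wt-Cre hearts at 4 weeks. Mx1, its neighbour at 72.4 kb on chromosome 16, was at 26.8 ± 4.10 CPM in Klf9KI and 1.98 ± 0.949 CPM in Wt-Cre hearts.

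**Figure D2:**
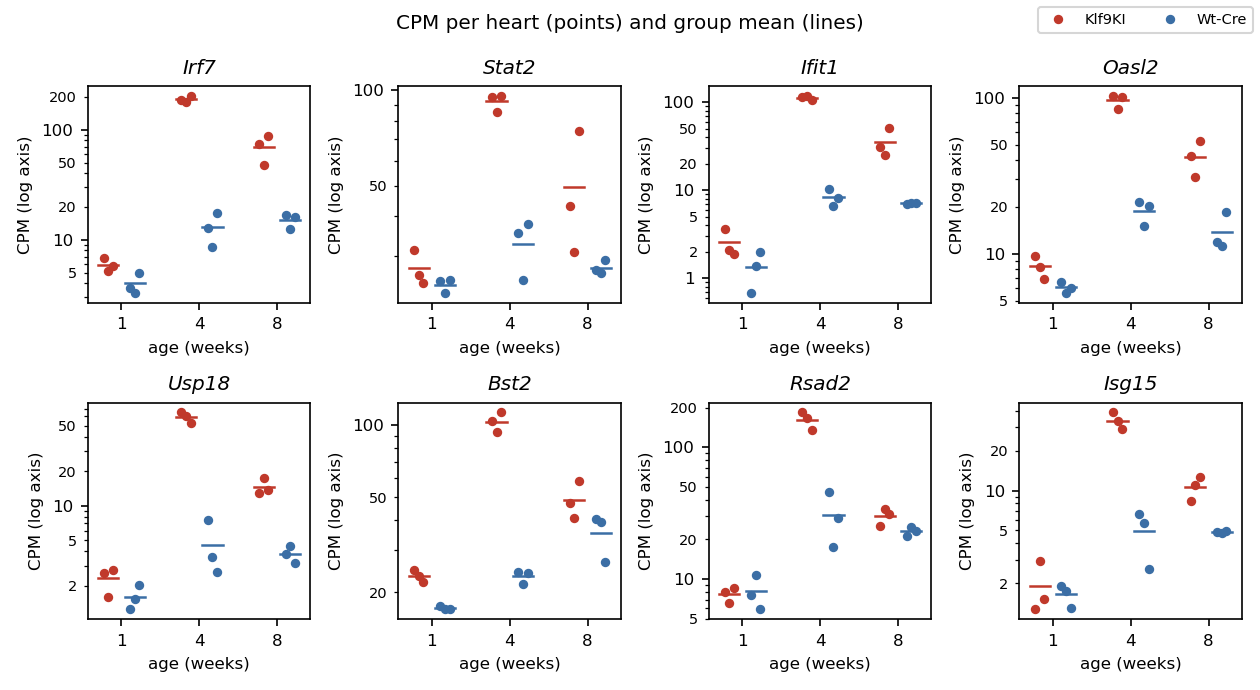
CPM of 8 members in each heart (points) with the mean of 3 hearts (lines), on a log axis, by age in weeks, Klf9KI left of Wt-Cre. Irf7 stood apart at every age, whereas Rsad2 reached 184 CPM in Klf9KI hearts at 4 weeks and lay between 25.2 and 34.3 CPM at 8 weeks, close to the Wt-Cre hearts.

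Isg15 is a ubiquitin-like tag, and the enzymes grouped with it attach or remove ubiquitin, Isg15 or ADP-ribose. All 7 members were higher at 4 weeks (log2 0.68 to 3.70) and 6 at 8 weeks, all but Trim25, a ligase that activates RIG-I (log2 0.57, adjusted p = 0.0741). Isg15 had 39, 33.3 and 29 CPM in Klf9KI hearts, against 6.61, 5.67 and 2.56 CPM in Wt-Cre hearts at 4 weeks (log2 2.77, SE 0.28, adjusted p = 0.000142). The 8-week levels were 8.33, 11 and 12.7 CPM in Klf9KI hearts, against 4.84, 4.82 and 4.96 CPM in Wt-Cre hearts (log2 1.16, SE 0.31, adjusted p = 0.0379). The 8-week call did not hold without any 1 of Wt-Cre hearts 1, 2 and 3 or Klf9KI hearts 1 and 3.

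Usp18 removes Isg15 and also damps the interferon receptor. It had 65.2, 60.2 and 52.4 CPM in Klf9KI hearts, against 7.50, 3.54 and 2.64 CPM in Wt-Cre hearts at 4 weeks (log2 3.70, SE 0.31, adjusted p = 7.29e-05), and 12.8, 17.4 and 13.8 CPM against 3.76, 4.49 and 3.16 CPM at 8 weeks (log2 1.97, SE 0.30, adjusted p = 0.0027). The groups stood apart at both ages. Parp9, partner of the ligase Dtx3l, had 24.9, 20.5 and 22.6 CPM in the Klf9KI hearts of 1 week and 16.1, 16.3 and 17.9 CPM in the Wt-Cre hearts (adjusted p = 0.179), and at 4 weeks 75.6, 70.8 and 73.3 CPM against 31.4, 22.0 and 22.7 CPM (log2 1.52, adjusted p = 8.26e-05). At 8 weeks Parp9 had 37.4, 36.7 and 49.0 CPM in Klf9KI hearts, against 24.9, 22.8 and 18.7 CPM in Wt-Cre hearts. Parp9 and Dtx3l overlap at their starts, on opposite strands of chromosome 16, with Parp14 55.0 kb away, so without strand reads from the overlap cannot be told apart.

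The remaining 10 members have varied roles, and 9 of them were higher at 4 weeks and 4 at 8 weeks. Apol9a and Apol9b, apolipoprotein L copies, held the largest fold changes of the set. Apol9a had 13.6, 12.4 and 13.5 CPM in Klf9KI hearts, against 0.179, 0 and 0.0852 CPM in Wt-Cre hearts at 4 weeks. With 549 counts over the 3 Klf9KI hearts and 3 counts over the Wt-Cre hearts, the ratio per summed count had a 95% interval of 56.6 to 809 (exact conditional, counting error only). Apol9b had 10.1, 11.9 and 9.85 CPM in Klf9KI against 0, 0.177 and 0.17 CPM in Wt-Cre hearts at that age. At 8 weeks Apol9b had 2.23, 1.69 and 7.64 CPM in Klf9KI hearts, against 0.167, 0.110 and 0.451 CPM in Wt-Cre hearts, with heart 3 of Klf9KI the highest.

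Ifi44 had 64.4, 57.1 and 58.6 CPM in Klf9KI hearts, against 9.83, 8.14 and 8.69 CPM in Wt-Cre hearts at 4 weeks (log2 2.75, SE 0.14, adjusted p = 1.44e-06). In the 8-week hearts it had 13.7, 13.4 and 10.2 CPM in Klf9KI hearts, against 7.18, 6.02 and 2.98 CPM in Wt-Cre hearts, at an adjusted p of 0.052. Lgals3bp, a secreted glycoprotein, averaged 176 ± 14.9 CPM in Klf9KI and 40.6 ± 8.85 CPM in Wt-Cre hearts at 4 weeks. Ifi35 had 38.1, 34.5 and 39.4 CPM in Klf9KI hearts, against 15.4, 11 and 20 CPM in Wt-Cre hearts at 4 weeks (log2 1.26, adjusted p = 0.00184), and the groups overlapped at 8 weeks.

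Ifi27l2a took another course. It had 30.7, 31.8 and 39.5 CPM in Klf9KI hearts, against 9.02, 10 and 17.8 CPM in Wt-Cre hearts at 4 weeks (log2 1.46, adjusted p = 0.00302), but 51.9, 28.8 and 110 CPM in Klf9KI hearts, against 26.2, 15.8 and 35.8 CPM in Wt-Cre hearts at 8 weeks (log2 1.33, adjusted p = 0.083). Both groups spread widely at 8 weeks and overlapped. It was the single member whose fitted level in Klf9KI hearts was above that of 4 weeks at 8 weeks (log2 0.91, adjusted p = 0.145).

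**Figure D3:**
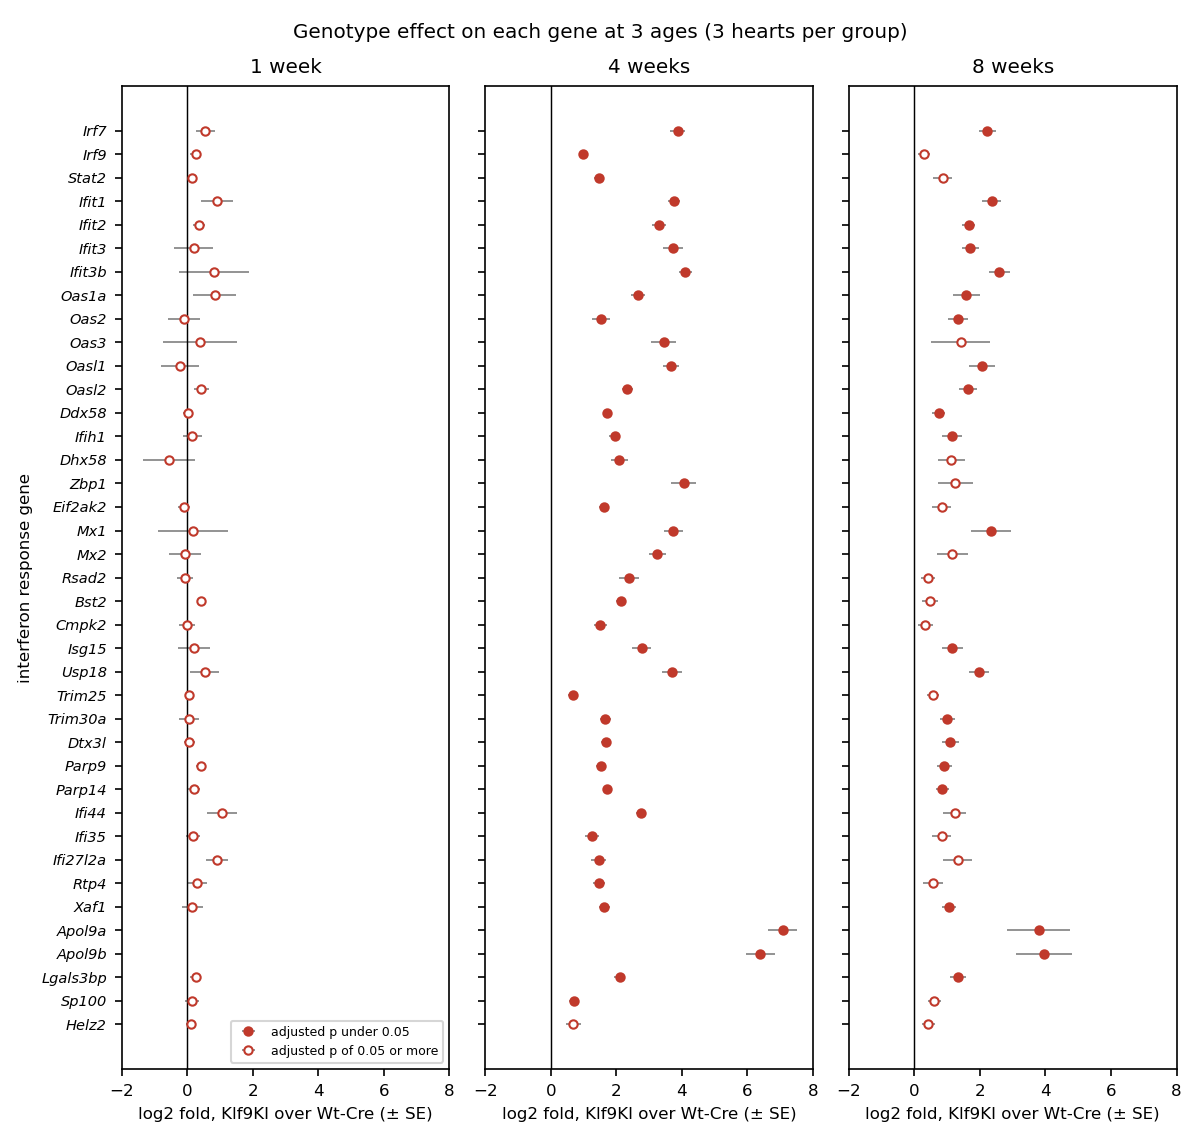
Log2 fold change of each member, Klf9KI over Wt-Cre, with its standard error, at 1, 4 and 8 weeks (3 hearts per group), where filled points have an adjusted p under 0.05. At 1 week 0 points are filled, at 4 weeks 38 of 39 and at 8 weeks 22 of 39.

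The genotype effects of the ages were compared directly, in 1 fit of all 18 hearts. The effect was larger at 4 weeks than at 1 week for 24 of 39 members, or 61.5%, where 0.684% of 16660 genes were called in that direction, and it was smaller for 0, where 0.468% were. The 24 include Apol9a, which was too low at 1 week to be tested at that age. The difference was 3.3 on the log2 scale for Irf7 (SE 0.34, adjusted p = 1.51e-05), 2.95 for Ifit2 (adjusted p = 6.34e-06) and 3.88 for Oasl1 (SE 0.53, adjusted p = 0.00039). Sex is tied to age within Klf9KI, since hearts 1 and 2 of 1 week carry Xist, and a single Klf9KI heart of 1 week does not. With sex as a covariate the number was 14 members, and without the hearts that carry Xist it was 15, where 0.57% and 0.617% of all genes were called in either direction, against 1.15% with all hearts and no covariate. These fits with sex were chosen after seeing the data, and both rest on 1 Klf9KI heart of 1 week. Between 8 weeks and 1 week it was larger for 8 members, or 20.5%, where 3.92% of all genes were called higher, 5.53% lower and 9.45% in either direction. These were Irf7, Ifit2, Oasl1, Oasl2, Ddx58, Usp18, Dtx3l and Lgals3bp. Without Klf9KI heart 2 or 3 of 1 week 5.46% and 6.21% of all genes were called in either direction. Without Wt-Cre heart 1 or 2 of 8 weeks the shares were 6.45% and 6.82%. The number of members was 4 in the first pair of these fits and 5 in the other pair. It was 3 with sex as a covariate (Irf7, Oasl1 and Oasl2) and 4 without the hearts that carry Xist, where 4.74% and 3.76% of all genes were called in either direction.

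All 39 log2 fold changes were smaller at 8 than at 4 weeks, and for 6 members the difference itself was called, where 0.324% of all genes were called lower. These were Rsad2 (−2.01, adjusted p = 0.0164), Bst2 (−1.69, adjusted p = 0.00277), Ifit2 (−1.68), Irf7 (−1.67), Ifi44 (−1.55) and Ddx58 (−1.01). The number depended on single hearts, with 2 members without Klf9KI heart 1 or 2 of 4 weeks and 14 without Klf9KI heart 3 of 8 weeks. It was 3 without Klf9KI heart 3 or Wt-Cre heart 2 of 4 weeks or Wt-Cre heart 1 or 2 of 8 weeks. All-gene calls in either direction moved as well, from 0.480% with all hearts. They were 0.161% and 0.104% without Klf9KI heart 1 or 2 of 4 weeks, and 2.85% without Klf9KI heart 3 of 8 weeks. In the fits that left 3 members they were 0.121% to 0.19%. In the changes with age that follow, age itself and a batch tied to it cannot be told apart, and for changes from 1 week in Klf9KI hearts sex is tied to age as well.

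In Klf9KI hearts all 39 members were higher at 4 weeks than at 1 week, where 16.7% of all genes were and 33.8% changed in either direction, and all 39 were higher at 8 weeks than at 1 week, where 14.9% were. The fits with sex rest on 1 Klf9KI heart of 1 week. In them fewer members were called higher at 8 weeks than at 1 week, and fewer of all genes were called. From 4 to 8 weeks 30 of the 39 members were lower in Klf9KI hearts and 0 higher, where 4.38% of genes were lower and 6.11% higher. Wt-Cre hearts shared the first of these changes: 29 members were higher at 4 weeks than at 1 week, where 17.4% of all genes were and 35.0% changed in either direction, and 25 at 8 weeks than at 1 week, where 19.9% were. The largest log2 change among members in Wt-Cre hearts from 1 to 4 weeks was that of Oas2, 3.60 (SE 0.38, adjusted p = 1.01e-06). Sp100, a nuclear body protein, had the smallest adjusted p there, with a change of 2.20 (adjusted p = 3.43e-08), and other members changed more. From 4 to 8 weeks 5 members were lower in Wt-Cre hearts (Ifih1, Trim25, Dtx3l, Ifi44 and Sp100), where 8.09% of genes were, and 1 was higher (Bst2, 0.60, adjusted p = 0.0138), where 11.0% were. The first of these counts was 3 without Wt-Cre heart 1 of 4 weeks and 2 without Wt-Cre heart 2 of 8 weeks. In these fits 12.1% and 12.6% of all genes changed in either direction, against 19.1% with all hearts.

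Single hearts can be set side by side by the mean over members of the log2 CPM relative to the Wt-Cre mean of the same age. At 1 week the Klf9KI hearts stood at 0.38, 0.13 and 0.33 and the Wt-Cre hearts at 0.02, −0.16 and 0.14, so that the groups overlapped. At 4 weeks they stood at 2.57, 2.46 and 2.51 in Klf9KI and 0.22, −0.31 and 0.10 in Wt-Cre hearts. At 8 weeks the values were 1.15, 1.15 and 1.57 in Klf9KI and 0.09, 0.05 and −0.14 in Wt-Cre hearts. Every Klf9KI heart of 4 and 8 weeks was thus above every Wt-Cre heart of its age. Klf9KI heart 3 of 8 weeks was the highest of its group for 27 of 39 members, and Wt-Cre heart 2 of 4 weeks the lowest of its group for 29.

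Summed over the 39 genes, the level was 3007, 2785 and 2820 CPM in the Klf9KI hearts of 4 weeks, against 806.6, 610.0 and 798.0 CPM in the Wt-Cre hearts. At 8 weeks it was 1122, 1135 and 1455 CPM in Klf9KI hearts, against 631.5, 595.1 and 611.6 CPM in Wt-Cre hearts. At 1 week it was 427.4, 386.3 and 411.1 CPM in Klf9KI hearts, against 355.9, 348.1 and 362.2 CPM in Wt-Cre hearts. The sum did not overlap between genotypes at any age, while the gap at 1 week was small beside that of 4 weeks.

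**Figure D4:**
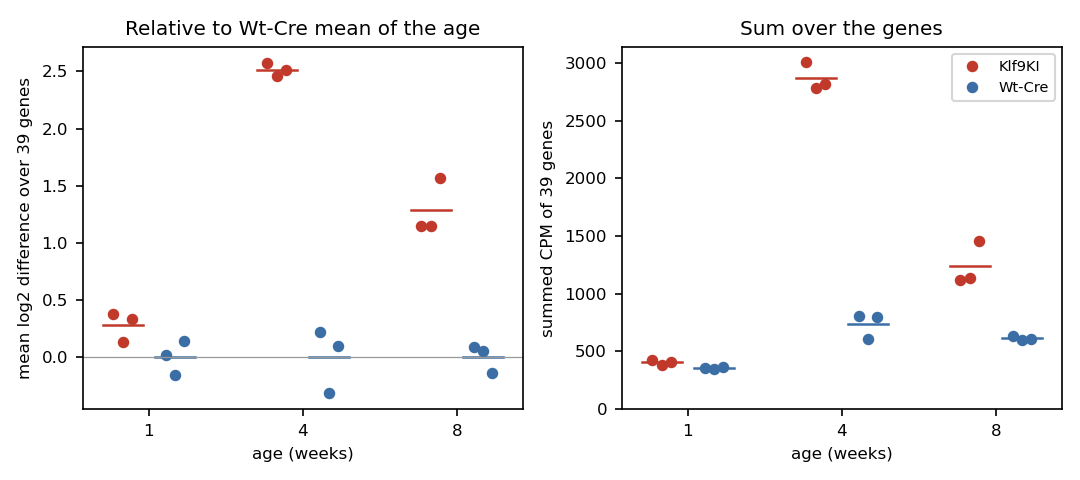
Level of the 39 members in each heart by age in weeks, Klf9KI left of Wt-Cre, as the mean log2 difference from the Wt-Cre mean of the age (left panel) and as summed CPM (right panel), with points for hearts and lines for means of 3. Klf9KI hearts of 4 weeks sit between 2.46 and 2.57 in the left panel, those of 8 weeks between 1.15 and 1.57.

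The ligands of the pathway were near the limit of detection. Ifnb1 had 2 counts over the 3 Klf9KI hearts and 0 counts over the 3 Wt-Cre hearts at 4 weeks, where a count of 0 allows up to 3, and Ifng had 1 count in each group. The receptor chains Ifnar1 and Ifnar2 were present and not called at any age: at 4 weeks Ifnar1 averaged 40.9 ± 3.71 CPM in Klf9KI and 42.4 ± 5.77 CPM in Wt-Cre hearts (adjusted p = 0.841), and Ifnar2 averaged 22.4 ± 1.16 CPM in Klf9KI and 18 ± 3.62 CPM in Wt-Cre hearts (adjusted p = 0.277). Of the 27 ligand and receptor genes listed, 6 were tested at each age. None was called at 1 or 4 weeks by edgeR, with all-gene shares as above, and at 8 weeks 1 was lower, Ifngr2, a chain of the interferon gamma receptor (log2 −0.93, adjusted p = 0.0132).

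Of 16 signal transduction genes 2 were higher and 0 lower at 4 weeks, among them the phosphatase Ptpn6 with a log2 fold change of 1.03 (adjusted p = 0.0385). At 8 weeks 2 were higher and 0 lower, namely Irf8 (log2 1.13, adjusted p = 0.0245) and the feedback inhibitor Socs3 (log2 1.39, adjusted p = 0.032). Irf1, a factor induced mainly by interferon gamma, was at 27.3 ± 2.39 CPM in Klf9KI and 23.1 ± 5.67 CPM in Wt-Cre hearts at 4 weeks (adjusted p = 0.466). The list's median log2 fold change was 0.16 at 4 weeks and 0.32 at 8 weeks. Beside these counts, 6.65% of all genes tested were called higher at 4 weeks and 4.96% at 8 weeks.

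Of 21 other nucleic acid sensing genes tested at 4 weeks 7 were higher and 0 lower, with a median log2 fold change of 0.50. They included Ifi204, a DNA sensor of the Ifi200 family (log2 2.31, adjusted p = 0.00013), the RNA-editing enzyme Adar (1.01, adjusted p = 0.00091), the antiviral zinc-finger protein Zc3hav1 (0.86) and the endosomal RNA receptor Tlr3 (1.01). At 8 weeks 3 of 20 were higher, namely Ifi204 (1.52), the adaptor Traf3 (0.99) and Tmem173, which encodes STING (1.07). Of 45 further interferon-induced genes 37 were higher and 0 lower at 4 weeks, with a median of 1.19. Those with the smallest adjusted p were Ifi27 (2.08), Nlrc5, which drives MHC class I genes (2.42), Slfn8 (2.80) and the helicase Ddx60 (2.51). At 8 weeks 4 of these 45 were higher, among them Ifi27 (1.5), Rnf213 (1.06) and Parp10 (0.86), and 1 was lower, Nt5c3 (−0.86), with a median of 0.62. Among all genes tested 6.65% were called higher at 4 weeks, and 4.96% higher and 5.52% lower at 8 weeks. At 1 week 0 genes of these 4 lists were called in either direction.

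Heart tissue holds many cell types, and in such samples fewer cells of a type and less RNA per cell cannot be told apart. The 15 macrophage markers summed to 542 to 843 CPM in Klf9KI and 431 to 549 CPM in Wt-Cre hearts at 4 weeks, with 5 of 15 higher and a median log2 fold change of 0.55. The ranges of the sums overlapped, and 0 markers were called lower. The 5 were Adgre1, Fcgr1, Ms4a7, Cx3cr1 and Ccr2. Others leaned the other way without a call, among them Cd163, Lyve1 and Mrc1. Cd163 had 19.2, 26.9 and 15.9 CPM in Klf9KI hearts, against 24.8, 39.7 and 57.9 CPM in Wt-Cre hearts. Lyve1 had 18.4, 15.7 and 20.8 CPM in Klf9KI hearts, against 15.4, 35.1 and 31.7 CPM in Wt-Cre hearts. Adgre1, which encodes F4/80, averaged 43.7 ± 25.2 CPM in Klf9KI and 16.8 ± 3.73 CPM in Wt-Cre hearts (log2 1.37, adjusted p = 0.0475), and the Fc receptor gene Fcgr1 averaged 10 ± 2.78 CPM in Klf9KI and 2.49 ± 1.01 CPM in Wt-Cre hearts (log2 1.99, adjusted p = 0.00257). Log2 fold changes were 1.5 for Ms4a7 (adjusted p = 0.0148), 1.16 for the chemokine receptor gene Cx3cr1 (adjusted p = 0.0308) and 1.22 for Ccr2, the chemokine receptor gene of recruited monocytes (adjusted p = 0.0172). At 8 weeks the macrophage sum was 779 to 925 CPM in Klf9KI and 494 to 659 CPM in Wt-Cre hearts, with 6 of 15 higher and a median of 0.74, and at 1 week 139 to 222 CPM in Klf9KI and 120 to 158 CPM in Wt-Cre hearts, with 0 called. Its part in the members' levels was not tested, and none of its 15 markers was at 0. The all-gene shares called higher were 6.65% at 4 weeks and 4.96% at 8 weeks.

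The 9 T and NK cell markers measured summed to 6.48 to 8.72 CPM in Klf9KI and 2.13 to 3.90 CPM in Wt-Cre hearts at 4 weeks, with Ncr1 at 0. Only 2 of the 10 listed could be tested, and 1 was called higher, Cd8a. Cd8a stood near the floor, at 0.856, 0.877 and 1.2 CPM in Klf9KI hearts, against 0, 0.354 and 0 CPM in Wt-Cre hearts. It reached the level needed for testing only in Klf9KI hearts, so its call carries little weight. Siglech, which marks the plasmacytoid dendritic cells that release interferon in quantity, had 8 counts in Klf9KI and 14 counts in Wt-Cre hearts of 4 weeks, and Klk1 was at 0. The sum of that list followed Cox6a2, which heart muscle expresses. Of 8 fibroblast markers 2 were higher at 4 weeks and 3 at 8 weeks, of 8 cardiomyocyte markers 3 were lower at 4 weeks and 2 at 8 weeks, and of 8 endothelial markers 0 were called at any age. Shares of all genes tested were 6.65% higher and 6.75% lower at 4 weeks, and 4.96% higher and 5.52% lower at 8 weeks. The part of these cell types in the members' levels was not tested either.

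Klf9-bound regions were listed with 6 of the 39 members, or 15.4%, against 37.6% of 14511 genes tested. Within 1 kb of a gene start they were found at 3 members, Usp18, Eif2ak2 and Irf7, or 7.69%, against 27.3% of genes tested. Each condition had 1 library, so these are values without a test. The signal is the authors' mean over the region, whose scaling between libraries is not given in the sources used here.

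The region of Usp18, chr6:121245648-121246131 (mm10), had its centre 17 bases upstream of the start and lay over a CpG island. Its signal was 59.7 in the TAC and 65.0 in the sham library, higher than that of 98.3% of the 5238 regions in the sham library. The region of Eif2ak2, chr17:78882413-78882834, was centred 51 bases upstream of the start, with 46.1 in the TAC and 41.7 in the sham library. The region of Irf7, chr7:141265942-141266245, lay 331 bases inside the gene, with 26.6 in the TAC and 22.5 in the sham library, which is near the median of all regions of 23.2 and 24.6. The Irf7 region was also listed with Phrf1 and Cdhr5, and that of Eif2ak2 with Sult6b1.

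The region of Isg15, chr4:156197814-156198262, had 46.1 in the TAC and 41.5 in the sham library but lay 2780 bases downstream of the gene's start and was also listed with Agrn. Ifi35 was listed with a pair of regions more than 16 kb downstream, next to Vat1, with 30.2 and 38.7 in the TAC and 23.1 and 23.8 in the sham library. Dhx58 was listed with a region more than 9 kb upstream that was called in the TAC library alone, at 20.4 in the TAC and 17.3 in the sham library. That region was also listed with Kat2a, Hspb9 and Rab5c. The authors' log2 ratio of TAC over sham was −0.12 for Usp18, 0.14 for Eif2ak2, 0.15 for Isg15, 0.24 for Irf7 and Dhx58 and 0.39 and 0.70 for the regions of Ifi35, beside a median of −0.12 over all regions.

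**Figure D5:**
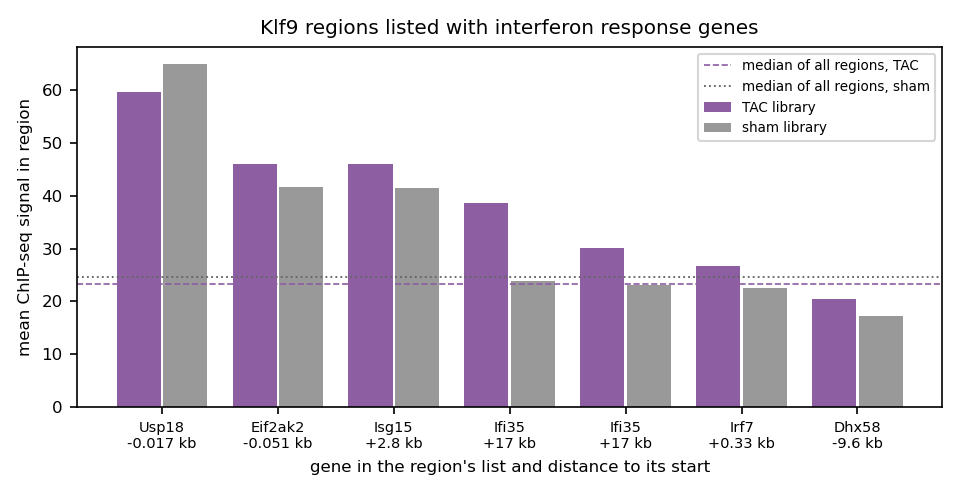
Mean Klf9 ChIP-seq signal of the 7 regions listed with members, with the TAC library left of the sham library (1 library each) and dashed or dotted lines at the medians of all 5238 regions. The gene and the distance of the region from its start in kb stand under each pair, and Usp18 is highest with 59.7 in the TAC and 65.0 in the sham library.

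Of the 3 members with a region within 1 kb, Eif2ak2 and Irf7 had a RefSeq window, and that of Eif2ak2 held the element, while Usp18 had no window and was not searched. The stretch of Eif2ak2 is shown because the element lies inside the deposited region. The 280 bases chr17:78882543-78882822 (GRCm38.p6, minus strand) run from 250 before the start to its first 30 transcribed bases, and the capitals mark the match to the element core, which is 18 to 27 bases past the first base.
Eif2ak2: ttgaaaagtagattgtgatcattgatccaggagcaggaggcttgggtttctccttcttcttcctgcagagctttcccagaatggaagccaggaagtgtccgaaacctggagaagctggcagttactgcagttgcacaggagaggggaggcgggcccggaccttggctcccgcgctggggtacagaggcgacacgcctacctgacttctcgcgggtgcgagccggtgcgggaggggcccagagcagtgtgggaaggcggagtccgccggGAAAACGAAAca

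The members can also be split by the element core, since they were chosen by name and not by sequence. At 4 weeks the 15 genes with a match had a median log2 fold change of 2.65, from 1.48 to 7.07, and the 14 with a window but no match had 1.66, from 0.68 to 3.87. At 8 weeks the medians were 1.16 with a match and 1.07 without, and at 1 week 0.20 and 0.17. The ranges overlapped at each age, and members on the same cluster or with copied promoters are not independent.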

How the data were processed

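The authors deposited raw counts per gene and heart, FPKM per gene and heart, and their own log2 fold changes and adjusted p-values at each age, per the file headers. The authors' deposited table called 0, 39 and 24 members higher at 1, 4 and 8 weeks and 0 lower. For chromatin they deposited a signal per merged region and library with a log2 ratio, per the file headers. Build mm10 and the tools MACS2 2.1.0, BWA, DESeq2 1.20.0, featureCounts 1.5.0-p3, HISAT2 2.0.5, fastp and StringTie 1.3.3b are listed, with no roles, per the submitters' processing notes. The labels' protocols name both stranded and unstranded libraries without saying which was made. A further 18 normalised columns were not used.

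Counts of the 6 hearts of an age were tested with edgeR 4.0.16 under R 4.3.3, by its robust quasi-likelihood test (filterByExpr, TMM, Benjamini-Hochberg over all genes tested). Differences between ages came from 1 fit of 18 hearts, whose library sizes also set every CPM given. The all-gene shares without overlap used library sizes from the fit of the single age instead. Members with a narrow gap, such as Bst2 at 8 weeks, could fall otherwise on that scale. Values per heart were scored with a prior count of 2. The test recovered simulated fold changes before use. The members, lists and tests were chosen with earlier results of these data known. The 4 pathway lists hold 112 genes. Values per heart are given for Irf7, Irf9 and Stat2, the 10, 5 and 5 members with the smallest adjusted p at 4, 8 and 1 weeks, those called at 1 age with a called difference between ages, and those with a Klf9 region. Of each pathway list up to 4 called genes per age are named, with Irf1, Ifnar1, Ifnar2 and Ifnb1, and 1 further gene of the rule is not reported here. Markers, and members named for their group, were chosen after their values were seen. Alternatives were a filter of 1 CPM in 3 hearts or none, DESeq2 1.42.0 size factors or its Wald test, a replicate block, all 18 hearts in 1 fit, each heart left out, sex at 1 week (read from Xist, as a covariate or by leaving out the hearts that carry it) and, added after seeing the data, sex in the 18-heart fit and a fit that is not robust.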

Additional observations from a re-analysis of the deposited data

Results flagged for a closer look

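Results stand here because the genotype effect, Klf9KI over Wt-Cre, differed between ages in the interaction test of the 18-heart fit (edgeR, adjusted over 16660 genes). All values are differences of log2 fold changes. Each call was looked at under 25 alternatives, 2 of them on sex.

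For 4 weeks minus 1 week, the factors Irf7 (3.3) and Stat2 (1.32) were flagged. In the IFIT family these were Ifit1 (2.85), Ifit2 (2.95) and Ifit3 (3.55), and among the oligoadenylate synthetases Oasl1 (3.88) and Oasl2 (1.91). Sensors were Ddx58 (1.70), Ifih1 (1.79) and Eif2ak2 (1.71). Restriction factors were Mx2 (3.28), Rsad2 (2.45), Bst2 (1.70) and Cmpk2 (1.52). In the Isg15 group they were Isg15 (2.57), Usp18 (3.15), Trim30a (1.60), Dtx3l (1.61), Parp9 (1.09) and Parp14 (1.51). The rest were Ifi44 (1.68), Xaf1 (1.49), Lgals3bp (1.84) and Apol9a (7.26). Apol9a was near 0 counts in Wt-Cre hearts and also in the Klf9KI hearts of 1 week, at 0, 0.277 and 0.287 CPM. It was too low to be tested at 1 week alone, so the size of its difference is uncertain. Adjusted p-values ran from 6.34e-06 (Ifit2) to 0.0438 (Xaf1). Of the 24 calls 12 held under all 25 alternatives, and those lost were Xaf1 in 15, Stat2 in 14, Trim30a in 13, Parp9 in 6, Ifi44 and Ifit3 in 4 each, Apol9a, Eif2ak2, Ifih1 and Mx2 in 2 each and Cmpk2 and Dtx3l in 1 each.

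For 8 weeks minus 1 week, the differences were 1.64 for Irf7, 1.27 for Ifit2, 2.26 for Oasl1, 1.16 for Oasl2, 0.69 for Ddx58, 1.40 for Usp18, 0.99 for Dtx3l and 1.04 for Lgals3bp. Adjusted p-values ran from 0.00454 (Irf7) to 0.048 (Usp18). The calls of Irf7 and Oasl1 held under all 25 alternatives, and those lost were Usp18 in 15, Ddx58 in 10, Dtx3l in 8, Lgals3bp in 4, Oasl2 in 3 and Ifit2 in 2, in the case of Ifit2 both on sex.

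For 8 weeks minus 4 weeks, the differences were −1.67 for Irf7, −1.68 for Ifit2, −1.01 for Ddx58, −2.01 for Rsad2, −1.69 for Bst2 and −1.55 for Ifi44. The calls of Bst2 and Ifit2 held under all 25 alternatives, and those lost were Ifi44 in 11, Ddx58 in 8, Irf7 in 5 and Rsad2 in 3. Irf7, Ifit2 and Ddx58 were called in all 3 comparisons.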

How the results depend on the processing

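At 1 week every alternative not concerned with sex gave 0 members called, while all-gene calls ran from 0.282% to 3.72%. Both fits with sex rest on 1 Klf9KI heart of that age, so little could be called in them. At 4 weeks the count was 37 to 39, and 36 of 38 calls held under all 13 alternatives, all but those of Rsad2 and Sp100, with 5.87% to 17.9% of all genes called. At 8 weeks it was 22 to 30 under alternatives that kept all hearts and 11 to 26 with a heart left out, and 8 of 22 calls held under all, with 3.42% to 19.7% of all genes called. With a heart left out, members whose effect was larger at 4 than at 1 week numbered 18 to 25, and larger at 8 than at 1 week 4 to 10. Those smaller at 8 than at 4 weeks numbered 2 to 14, and those lower from 4 to 8 weeks in Wt-Cre hearts 2 to 7. All-gene calls in either direction ran, in the same order, from 0.61% to 1.72%, 5.46% to 14%, 0.104% to 2.85% and 11.5% to 23.4%. With sex as a covariate 14 members had a larger effect at 4 than at 1 week and 3 at 8 than at 1 week, and without the hearts that carry Xist 15 and 4, where 1 Klf9KI heart of 1 week is left. The DESeq2 Wald test gave 14 members smaller at 8 than at 4 weeks, where 2.91% of all genes were called in either direction, and the cause was not tested. Members with a Klf9 region numbered 3 within 1 kb of a start and 3 in the upper part by sham signal, since these limits keep fewer regions. Whether the replicate numbers pair the hearts is not settled. Correlations of same-numbered hearts were weak, at −0.11 to 0.16, and were all positive at 4 and 8 weeks. Differently numbered hearts gave −0.10 to 0.06 at those ages, with some values above those of same-numbered hearts. With the replicate block 39 members were higher at 4 weeks, 26 at 8 weeks and 0 at 1 week. In these fits 17.7%, 13% and 1.19% of all genes were called in either direction. No called direction reversed. With 3 hearts per group and 17225388 to 32855383 counts at 1 week, small effects there may go undetected.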

Other observations

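Klf9 regions close to the start of genes upstream of the response were read as well, with no test since each condition had 1 library. Irf1 had a region 3 bases before its start with a mean signal of 30.5 in the TAC and 31.3 in the sham library. Both receptor chains had one, Ifnar1 at 30 bases past the start with 19.8 in the TAC and 20.9 in the sham library and Ifnar2 at 24 bases before it with 20.6 in the TAC and 27.7 in the sham library. The medians over all regions were 23.2 in the TAC and 24.6 in the sham library. A region within 1 kb of the start was found at 27.3% of genes tested. Other genes of the pathway lists had one as well, among them Jak1, Stat3 and Mavs.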
